A study of Mus musculus with 22 samples.

Results

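Collagens, laminins and integrins are 84 row names of the 2 tables of unique molecular identifiers (UMIs) that were deposited for the hypothalamus of ob/ob mice. They were every row named as a collagen chain (Col, a number, a, a number), a laminin chain (Lama, Lamb or Lamc with a number) or an integrin subunit (Itga or Itgb with a number or with L, M, V, E or X). The nuclei table held 82 of them among 20668 genes, made up of 43 collagen, 11 laminin, 24 integrin and 4 integrin-named rows. The whole-cell table held 79 among 16304 genes, made up of 41, 10, 24 and 4. Both tables held 77, the nuclei alone held 5 and the cells alone held 2. The gene Itgam is listed as Itgam.1 in the nuclei and as Itgam in the cells, so it enters as 2 row names. Col4a3bp, the ceramide transfer protein, only begins like a collagen chain and was left out, as 1 row. The 4 integrin-named rows, Itgb1bp1, Itgb1bp2, Itgb3bp and Itgbl1, match the rule without being integrin subunits. They are listed apart in these row numbers but enter the counts of member tests and calls below.

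The mice were male, leptin-deficient ob/ob, 11 weeks old and individually housed. Each received 3 µg of human fibroblast growth factor 1 (FGF1) or phosphate-buffered saline (vehicle) through a cannula in the lateral ventricle (icv), and vehicle mice were given the amount of food that FGF1 mice ate. Single-nucleus RNA-seq was done on frozen hypothalamic punches from 3 FGF1 and 3 vehicle mice on Day 1 and from 2 and 2 mice on Day 5. Single-cell RNA-seq was done on dissociated mediobasal hypothalamus from 6 FGF1 and 6 vehicle mice on Day 5, kept on another chow. Per the study's methods the mice for nuclei came from Jackson (B6.Cg-Lepob/J) and those for whole cells from Janvier (B6.V-Lepob/JRj), so nuclei and cells differ in stock, chow and preparation alike. One library was 1 mouse. All groups carry the leptin mutation, the surgery and the injection, and there was no lean or freely fed group.

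Collagens are triple helices of 3 chains. Fibril-forming chains build the fibers of meninges and vessel walls, whereas collagen IV and the laminins, each a trimer of an alpha, a beta and a gamma chain, polymerize into the basement membranes under endothelium, around vessels and at the pial surface, where the endfeet of astrocytes and tanycytes attach. Integrins are alpha-beta pairs on the cell surface that grip these proteins and connect them to the actin cytoskeleton. The alpha chain largely sets the ligand, so Itga5 and Itgav pairs bind the RGD motif of fibronectin and vitronectin, Itga6 and Itga7 pairs bind laminin, and Itga11 pairs bind fibrillar collagen. The wall of the third ventricle is made of ependymal cells and tanycytes, which meet the cerebrospinal fluid that carried the injected FGF1.

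Libraries held 2652897 to 16345981 UMIs. Of 24645 barcode sequences among the nuclei 318 occurred in more than 1 library, and of 53065 among the cells 1791 did. Levels are CPM values (UMIs scaled to a common library total) of the summed UMIs of a mouse in a cell type, scaled by TMM. A member was called where the Benjamini-Hochberg FDR of edgeR's quasi-likelihood test, taken over all genes tested in that cell type, was below 0.05, and every FDR printed is of that test unless another is named. Nuclei kept the cell type of the deposited annotation, and clusters of whole cells were named "-like" from marker genes that included no collagen, laminin or integrin. Fewer nuclei or cells of a kind within a type and less RNA in each cannot be told apart in such sums. Filters on low counts left 69 members in 192 tests over 18 types on Day 1, 67 members in 184 tests in Day 5 nuclei and 45 members in 164 tests in Day 5 cells. The other members passed the filter in none of the types tested. Types with fewer than 2 mice of at least 10 nuclei in a group, such as endothelial nuclei on both days, were not tested.

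On Day 1 Col5a3 was called in the most cell types of any collagen, and Itga5 had the steepest called change of any integrin. Col4a5 and Col4a6, which encode 2 of the 6 chains of collagen IV, were higher together in tanycyte-like cells on Day 5. The promoters of these 4 genes are shown because the results turn on them. They cover 250 bases before to 50 after the gene start of RefSeq, 5′ to 3′ on the gene's own strand, on GRCm38.p6, where 60 of the 84 rows had one. Capitals mark the CCAAT box (CCAAT) and the GC box (GGGCGG), each searched on both strands.
Col4a5, chrX:141475169-141475468, plus strand: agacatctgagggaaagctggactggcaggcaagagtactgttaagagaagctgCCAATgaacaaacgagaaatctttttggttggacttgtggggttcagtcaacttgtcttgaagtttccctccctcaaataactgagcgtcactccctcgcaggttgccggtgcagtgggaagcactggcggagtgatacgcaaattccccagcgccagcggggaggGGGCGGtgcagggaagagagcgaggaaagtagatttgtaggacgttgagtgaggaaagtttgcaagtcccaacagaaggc
Col4a6, chrX:141474027-141474326, minus strand: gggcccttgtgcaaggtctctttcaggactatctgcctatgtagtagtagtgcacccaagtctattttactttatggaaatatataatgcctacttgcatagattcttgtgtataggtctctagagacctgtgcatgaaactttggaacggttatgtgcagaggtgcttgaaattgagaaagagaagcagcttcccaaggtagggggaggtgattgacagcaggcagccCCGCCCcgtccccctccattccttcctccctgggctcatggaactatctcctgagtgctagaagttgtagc
Col5a3, chr9:20815018-20815317, minus strand: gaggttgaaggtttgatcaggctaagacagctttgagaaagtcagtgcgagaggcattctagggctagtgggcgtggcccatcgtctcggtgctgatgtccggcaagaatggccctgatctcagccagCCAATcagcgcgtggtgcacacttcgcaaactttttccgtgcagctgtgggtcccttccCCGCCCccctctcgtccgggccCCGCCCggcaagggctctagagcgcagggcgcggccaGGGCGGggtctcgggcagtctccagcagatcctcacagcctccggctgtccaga
Itga5, chr15:103366742-103367041, minus strand: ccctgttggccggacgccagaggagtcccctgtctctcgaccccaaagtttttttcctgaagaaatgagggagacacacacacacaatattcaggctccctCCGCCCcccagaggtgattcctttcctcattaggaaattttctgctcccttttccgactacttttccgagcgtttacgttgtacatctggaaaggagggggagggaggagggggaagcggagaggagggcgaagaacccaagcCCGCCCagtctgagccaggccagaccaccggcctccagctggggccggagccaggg
Col4a5 and Col4a6 lie head to head on the X chromosome with their gene starts 1309 bases apart in the GENCODE annotation. The RefSeq starts behind the Col4a5 and Itga5 windows differ from the starts in that annotation. In the annotation Col4a5 spans X 141475385 to 141689234 and Col4a6 spans X 141165403 to 141474076. Their windows each held a GC box, and a CCAAT box was found in the Col4a5 window but not in that of Col4a6. The Col5a3 window held a CCAAT box and 3 GC boxes and the Itga5 window 2 GC boxes. Over all 32851 mouse promoters of this length 37.4% held a CCAAT box and 35.7% a GC box. The AP-1 letters TGANTCA, found in 7.81% of promoters, and TATAAA, found in 13.6%, were in none of the 4 windows.

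The levels in vehicle mice show where the members are expressed without FGF1. Vascular and leptomeningeal (VLMC)-like cells of cluster 13, measured in 4 vehicle mice, had the highest mean of 16 collagens. Col1a1, a chain of fibrillar collagen I, reached 834 ± 445 CPM there (SD, n = 4) against 24.5 in the next cluster, which was border macrophage-like. Its partner chain Col1a2 reached 1180 ± 519 and Col3a1, the chain of collagen III, 462 ± 154, and neither overlapped with the pericyte-like cells that came next. The basement membrane chain Col4a1 was at 264 ± 216 in VLMC-like and 186 ± 96.0 in pericyte-like cells, an order not beyond the spread between mice, whereas Col4a2, its partner, was highest in pericyte-like cells at 322 ± 133. Col4a5 was at 164 ± 47.5 in VLMC-like cells and at 27.3 in the next, tanycyte-like cluster 7.

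A pair of transmembrane collagens stood out in tanycyte-like cells. Col23a1 stood at 1290 ± 133 CPM in cluster 10 and 1120 ± 155 in cluster 7, with overlap between them. Col25a1 separated these 2 clusters, with 1140 ± 295 in cluster 10 and 112 in cluster 7. Col8a2, a network-forming collagen of specialized basement membranes, was highest in ependymal-like cells at 155 ± 43.2, and so was Col6a5 at 28.5, each with no overlap with the next cluster. Col5a3 was also highest there, at 70.8 ± 13.9, overlapping with VLMC-like cells. Among cells of the oligodendrocyte lineage, Col11a2, a chain of the minor fibrillar collagen XI, was at 140 ± 66.2 in COP-like (committed precursor) cells and 134 ± 40.0 in OPC-like (oligodendrocyte precursor) cells, and Col9a3, a fibril-associated chain, at 228 ± 93.8 in COP-like cells.

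Of the 9 laminins with at least 10 UMIs in their highest cluster, 7 were highest in VLMC-like, pericyte-like or endothelial-like cells. The other two, Lama3 and Lamb3, were highest in ependymal-like cells at 5.13 and 6.76 CPM, both overlapping with the next cluster. Lama2 was highest in VLMC-like cells at 176 ± 60.8 CPM, as were Lama1 at 96.8 ± 140 and Lamb1 at 104 ± 100, both with a spread as wide as the mean. Lamc1 was highest in pericyte-like cells at 349 ± 136, with Lamb2 at 306 ± 237 and Lama4 at 98.8 ± 103, the last from 9 UMIs. Lama5, the alpha chain of mature endothelial basement membrane, was highest in endothelial-like cells at 35.8 ± 9.49. Integrins were highest in several kinds of cells. Microglia-like cells held the highest Itgam, the alpha chain of complement receptor 3, at 358 ± 97.6 against 37.0 in border macrophage-like cells, and the highest Itgb5 at 431 ± 78.3 against 158 in cluster 10. Itgav at 351 ± 52.3 and Itgb8 at 294 ± 35.3, partners in an integrin that binds latent TGF-beta, were both highest in OPC-like cells, each overlapping with astrocyte-like cluster 4. Itga6 was highest in endothelial-like cells at 280 ± 29.6, and Itgb1, the common beta chain, in COP-like cells at 328 ± 204. Itga5 was almost silent, with a maximum of 9.17 ± 10.6 in microglia-like cells.

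**Figure D1:**
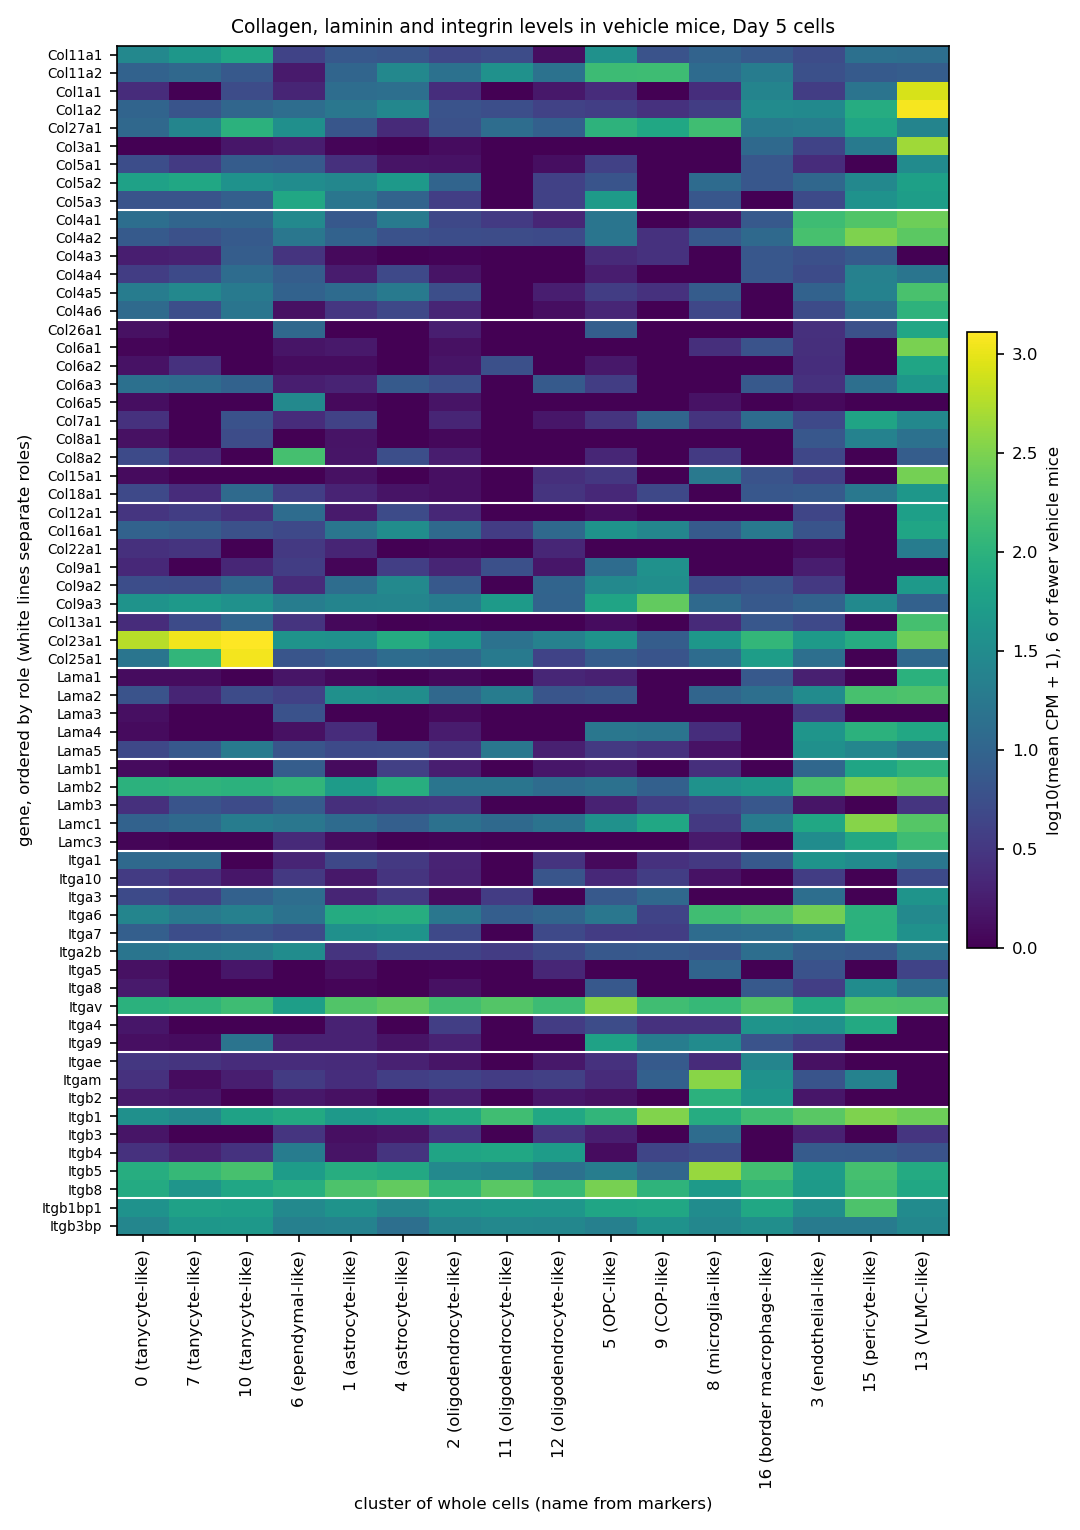
Level of each member in the clusters of whole cells from vehicle mice on Day 5, as log10 of the mean CPM plus 1, for members with at least 10 UMIs in a cluster. Rows are ordered by role with white lines between roles. Col1a1, Col1a2 and Col3a1 are brightest in VLMC-like cluster 13, Col23a1 and Col25a1 in tanycyte-like cluster 10, and Itgam in microglia-like cluster 8.

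On Day 1, FGF1 changed 11 of 192 member tests, 10 higher and 1 lower, where 1.05% of all 72292 gene tests were called, 0.653% higher and 0.393% lower. The calls fell in tanycytes, ependymal cells, astrocytes, nuclei labelled Olig, VLMC nuclei and 1 neuron type. The share of all genes called was 9.14% in tanycytes, 19.0% in ependymal cells, 1.55% in astrocytes, 0.222% in Olig, 2.26% in VLMC and 0.119% in the neuron type, so the tanycyte and ependymal calls came from types in which many genes moved. The median log2 fold change over the 192 member tests was -0.08 and 88 were positive, and over all genes the median was 0.01. Counts by role repeat a gene over several types of the same mice, and a difference between roles was not tested. The RGD-binding alpha chains had 11 of 12 tests positive and 3 called, with a median of 1.07. Of these tests 7 were of Itgav and 3 of Itga5. The filter on low counts keeps a gene with enough counts in either group alone. Itga5 entered in ependymal cells with 55 UMIs in FGF1 and 3 in vehicle mice, and in astrocytes with 155 and 7. The fibril-forming collagens had 13 of 20 positive and 5 called, with a median of 0.44. Among them Col5a3 entered in astrocytes with 258 UMIs in FGF1 and 10 in vehicle mice, and in Olig nuclei with 46 and 4. The counts by role thus include members that passed the filter only through the group in which they were high. The transmembrane collagens had 2 of 24 positive with a median of -0.66, and edgeR and DESeq2 each called 0 of them (6 at an unadjusted edgeR p below 0.05). Of these 24 tests 17 were of Col25a1 and 5 of Col23a1. The laminins had 10 of 23 positive and a median of -0.01, with 0 called by edgeR (2 at an unadjusted p below 0.05) and 1 by DESeq2. Marker levels moved in the same nuclei. The 6 ependymal markers summed to 50.2 to 75.5 CPM in FGF1 and 488 to 758 in vehicle tanycytes, to 2680 to 3040 and 5660 to 7060 in ependymal cells, and to 20.0 to 26.1 and 76.3 to 108 in astrocytes. In ependymal cells astrocyte markers (1710 to 3490 against 4100 to 5780) and oligodendrocyte markers (273 to 715 against 1070 to 1490) were lower without overlap, and OPC markers (1980 to 3320 against 1240 to 1630) were higher. In tanycytes smooth muscle markers, 3 of 5 detected in FGF1 and 2 in vehicle mice, summed to 25.1 to 64.2 against 0 to 18.7, and oligodendrocyte markers to 385 to 419 against 771 to 949. Tanycyte markers summed to 494 to 797 and 700 to 1230 in tanycytes, and all 8 were detected in both groups. In astrocytes the 5 smooth muscle markers, of which 3 were detected in FGF1 and 4 in vehicle mice, summed to 53.4 to 68.6 and 11.6 to 15.3, and VLMC markers, 5 and 6 of 7 detected, to 117 to 367 and 45.7 to 155. VLMC markers, 4 of 7 detected in each group, summed to 58.7 to 553 in FGF1 and 35.9 to 84.2 in vehicle tanycytes. The part of these levels in the calls was not tested.

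Itga5, the alpha chain of the fibronectin receptor (chromosome 15, 103344286 to 103366763, minus strand), rose in ependymal cells and astrocytes. In ependymal cells its level was 626, 522 and 410 CPM in FGF1 replicates 1, 2 and 3 and 29.6, 0 and 57.3 in vehicle replicates 1, 2 and 3. Every FGF1 mouse lay above every vehicle mouse, with 519 ± 108 against 29.0 ± 28.6 (SD, n = 3 each). These levels came from 55 UMIs in FGF1 and 3 in vehicle mice, so the size of the change rests on very few vehicle counts. The log2 fold change was 3.98 ± 0.62 (SE, FDR = 0.000275). The call held without each of the 6 mice in turn. In astrocytes the values were 83.8, 176 and 80.2 against 5.09, 5.81 and 19.6, again without overlap and from 155 UMIs against 7. The log2 fold change was 3.68 ± 0.63 (FDR = 0.0151), and the call was lost without FGF1 replicate 2 (FDR = 0.103), vehicle replicate 1 (0.119) or vehicle replicate 2 (0.127). Tanycytes fell below the filter on low counts, yet showed the same direction, with 98.2, 142 and 100 CPM in FGF1 mice and no UMI in any vehicle mouse. There 49 UMIs stood against 0, and against a floor of 3 counts over the vehicle group the level was at least 10.1-fold higher, a bound that covers counting error only. VLMC nuclei, not tested for this gene, had 279 and 448 CPM in FGF1 replicates 1 and 3 and 23.8, 122 and 48.3 in vehicle mice. In the neurons that the study could not map to a published type (unmap) the levels were 16.0 ± 3.62 in FGF1 and 23.1 ± 4.16 in vehicle mice, and the gene was not called.

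Itgav, which pairs with beta chains such as Itgb1, Itgb3, Itgb5 and Itgb8 and lies on chromosome 2 (83724397 to 83806916), rose in tanycytes. Its level was 287, 377 and 486 CPM in FGF1 and 108, 140 and 197 in vehicle mice. The groups did not overlap, and the log2 fold change was 1.37 ± 0.39 (FDR = 0.0446). This call lay close to the threshold. It was lost without any mouse other than FGF1 replicate 1, with an FDR up to 0.273, with batch as a block (FDR = 0.134) and in DESeq2 (0.0665). The study names Itgav from these same samples, so its direction here is not independent evidence. The fold change was positive in all 7 types tested. In astrocytes the values were 471, 437 and 494 against 158, 104 and 229 (1.53 ± 0.51, FDR = 0.249), in COP nuclei 157, 271 and 163 against 82.7, 72.8 and 104 (FDR = 0.417), and in Olig nuclei 58.2, 64.1 and 87.2 against 29.5, 29.5 and 26.0 (FDR = 0.461). The groups were apart in these 3 types and edgeR called none of them, each at an unadjusted p below 0.05, whereas DESeq2 called the astrocyte difference (FDR = 0.0298).

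Of the laminin-binding alpha chains, Itga7 rose in astrocytes, the 1 type in which it was tested. It stood at 84.9, 101 and 107 CPM in FGF1 and 20.3, 19.4 and 13.1 in vehicle mice. The groups were far apart and tight, with 97.6 ± 11.4 against 17.6 ± 3.95 and a log2 fold change of 2.39 ± 0.43 (FDR = 0.0202). The call was lost without FGF1 replicate 2 (FDR = 0.0978) or any of the vehicle mice (0.0984 to 0.117) and with batch as a block (0.0997). In vehicle whole cells Itga7 was highest in pericyte-like cells at 95.3 ± 74.7 CPM, overlapping with astrocyte-like cluster 4 at 39.5. Itga6 was positive in 5 of 5 types, at 0.97 in astrocytes (FDR = 0.596), and was called in 0 types by edgeR (1 at an unadjusted p below 0.05) and 0 by DESeq2. Of the laminin chains themselves, Lamc1, the gamma chain of most laminins, came nearest to a call in the same nuclei. It stood at 55.5, 79.9 and 127 CPM in FGF1 and 15.3, 19.4 and 19.6 in vehicle mice, with no overlap and a log2 fold change of 2.16 ± 0.48 (FDR = 0.0533), and DESeq2 called it (FDR = 0.0164).

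Itga11, the alpha chain of a receptor for collagen I, was the single member that fell. In the n29.Nr5a1/Adcyap1 neurons it stood at 11.9, 12.2 and 26.3 CPM in FGF1 and 89.3, 62.6 and 84.9 in vehicle mice. All 3 FGF1 mice lay below all 3 vehicle mice, with 16.8 ± 8.24 against 79.0 ± 14.3 and a log2 fold change of -2.39 ± 0.38 (FDR = 0.0302). The call was lost without FGF1 replicate 2 (FDR = 0.0927) or any vehicle mouse (0.0613 to 0.287), and with batch as a block (0.132). The groups were also apart in the other 3 types tested, each at an unadjusted p below 0.05 and none called by edgeR, with -2.45 in microglia (FDR = 0.763), -1.98 in Olig (0.128) and -2.08 in unmapped neurons (0.114). DESeq2 called the last of these (FDR = 4.87e-06). Itga11 was lower over whole libraries too. Counted over every nucleus of a library, it was at 12.8, 11.8 and 20.7 CPM in FGF1 and 57.4, 48.3 and 80.7 in vehicle mice. A difference of similar size thus stood in types labelled as neurons and as glia, and the part of a difference between libraries in the call was not tested. Neuron markers summed to 18300 to 20600 CPM in FGF1 and 17600 to 24400 in vehicle Olig nuclei. In n29.Nr5a1/Adcyap1 neurons they summed to 21800 to 23700 and 21800 to 27300. On Day 5 whole libraries of nuclei had 17.9 and 16.9 CPM of Itga11 in FGF1 and 26.1 and 50.3 in vehicle mice, with lower values in 4 of 4 types tested, of which edgeR called 0 (1 at an unadjusted p below 0.05) and DESeq2 0.

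Among the fibril-forming collagens, Col5a3, a minor chain of collagen V (chromosome 9, 20770050 to 20815067, minus strand), rose in 3 of the 4 types tested. In astrocytes it stood at 163, 205 and 207 CPM in FGF1 and 25.4, 3.87 and 19.6 in vehicle mice, from 258 UMIs against 10. The groups were separate, and the log2 fold change was 3.77 ± 0.61 (FDR = 0.0122). This call was lost without vehicle replicate 1 (FDR = 0.0805). In nuclei labelled Olig the values were 41.2, 42.0 and 54.5 against 0, 3.28 and 8.66, from 46 UMIs against 4. There the log2 fold change was 3.58 ± 0.64 (FDR = 0.0368). That call was lost without FGF1 replicate 2 or 3 or vehicle replicate 1 or 2 (FDR = 0.199 to 0.316) and with batch as a block (0.234). The Olig nuclei of FGF1 mice also had lower oligodendrocyte markers, 1190 to 2380 CPM against 2580 to 3350, and more VLMC markers, 256 to 533 against 130 to 342. Neuron markers in the same nuclei were far above their oligodendrocyte markers in both groups, at 18300 to 20600 and 17600 to 24400. The part of these levels in the call was not tested.

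In ependymal cells, where Col5a3 was highest without treatment, the values were 983, 973 and 376 CPM in FGF1 and 237, 342 and 458 in vehicle mice. FGF1 replicate 3 lay within the vehicle range. The log2 fold change was 1.18 ± 0.38 (FDR = 0.0385), and the call was lost without FGF1 replicate 1 or 2 or vehicle replicate 1 or 2 (FDR = 0.103 to 0.182), with batch as a block (0.0636) and in DESeq2 (0.133). In tanycytes, below the filter, Col5a3 stood at 86.9, 117 and 134 against 27.1, 0 and 17.9. Over whole libraries it was at 23.5, 27.9 and 24.4 in FGF1 and 4.15, 4.28 and 7.80 in vehicle mice. In unmapped neurons it was at 5.10, 6.54 and 8.24 against 1.67, 2.43 and 1.13, which was not a call (FDR = 0.558).

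Col11a1, a chain of collagen XI, rose in tanycytes, from 244, 206 and 179 CPM in vehicle mice to 472, 478 and 586 in FGF1 mice. The groups did not overlap, and the log2 fold change was 1.26 ± 0.35 (FDR = 0.0389). The call was lost without any mouse other than FGF1 replicate 1 (FDR up to 0.157), with batch as a block (0.136) and in DESeq2 (0.06). Col3a1, the chain of the reticular fibers around vessels, rose in VLMC nuclei, where FGF1 replicate 2 had too few nuclei to enter. FGF1 replicates 1 and 3 stood at 1540 and 1470 CPM and the vehicle mice at 191, 449 and 145. The log2 fold change was 2.51 ± 0.64 (FDR = 0.0111). These values came from 12 and 28 FGF1 nuclei and 19, 15 and 12 vehicle nuclei, and the call was lost without any one vehicle mouse (FDR = 0.0562 to 0.317) and with batch as a block (0.996). With these 5 libraries the batch fit leaves 1 residual degree of freedom per gene. VLMC markers summed to 5560 to 12600 CPM in these FGF1 nuclei and 2560 to 6120 in vehicle nuclei, all 7 detected in both. Border macrophage markers, 2 of 5 detected in FGF1 and 1 in vehicle nuclei, summed to 69.8 to 95.9 and 0 to 23.8, and arachnoid barrier markers, 4 of 5 detected in each, to 279 to 480 and 596 to 1630. The part of these levels in the call was not tested. In the same nuclei Col1a2 had 438 ± 421 (n = 2) against 652 ± 289 CPM (n = 3), with a log2 fold change of -0.40 (FDR = 0.813), and Lama2 had 759 ± 283 against 1150 ± 318.

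Col16a1, a fibril-associated chain, came near a call in astrocytes, a member taken up after its values were seen. It stood at 131, 71.9 and 73.5 CPM in FGF1 and 30.5, 7.74 and 0 in vehicle mice, without overlap. The log2 fold change was 2.93 ± 0.69 (FDR = 0.0696), and it was called by DESeq2 (0.00195), in 1 fit over the 4 groups of nuclei (0.0233) and with the replicate number as a block (0.0101), but not with batch as a block (0.165).

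Col6a3, the alpha 3 chain of beaded-filament collagen VI (chromosome 1, 90765923 to 90843971, minus strand), gave the only Day 1 collagen call that held in every refit without a mouse. In tanycytes it stood at 196, 218 and 184 CPM in FGF1 mice and 0, 18.7 and 35.9 in vehicle mice. These levels came from 89 UMIs in FGF1 and 4 in vehicle mice. The FGF1 mice were close to one another and far above the vehicle mice, with a log2 fold change of 3.66 ± 0.63 (FDR = 0.00344), and the call held without each of the 6 mice, with batch as a block (0.0219) and in DESeq2 (0.00122). Col6a1, whose chain assembles with that of Col6a3, was below the filter. It had 54 UMIs in FGF1 ependymal cells against 0 in vehicle, or at least 17.3-fold higher against the floor, and 25 against 0 in tanycytes, or at least 5.13-fold higher. Vehicle tanycytes thus had 0 to 35.9 CPM of Col6a3 and no UMI of Col6a1.

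Col23a1, the most abundant tanycyte collagen of the figure of vehicle levels, had lower values after FGF1 that the filtered fit did not call. In tanycytes it stood at 332, 520 and 687 CPM in FGF1 and 1270, 1040 and 754 in vehicle mice, with no overlap and a log2 fold change of -1.02 ± 0.41 (FDR = 0.15). The fold change was negative in all 5 types tested, with -1.43 in astrocytes (FDR = 0.43), and 3 had an unadjusted p below 0.05, but edgeR and DESeq2 each called 0. Below the filter in ependymal cells it had 0, 47.5 and 68.4 against 712, 342 and 200, and edgeR without the filter called it there (-3.38, FDR = 1.72e-05). Itgb1 in tanycytes stood at 189, 151 and 184 against 81.3, 46.8 and 108, also separate and not called (1.21 ± 0.42, FDR = 0.0918). Its fold change was positive in all 10 types tested, 2 of them at an unadjusted edgeR p below 0.05, and edgeR and DESeq2 each called 0. Of the basement membrane chains, Col4a5 was at -0.41 and Col4a6 at -0.21 in tanycytes, Lamb2 at -0.84 there (FDR = 0.324), and Lama2 at -0.97 in astrocytes (FDR = 0.557). Itgb5 was at 1.13 in microglia (FDR = 0.953), and Itgb8, tested in 9 types, was called in 0 by edgeR (0 at an unadjusted p below 0.05) and 0 by DESeq2. Col4a1, Lama4 and Lamb1 passed the filter in unmapped neurons alone and Lama1 and Col4a2 mostly in neurons, without a call by edgeR.

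**Figure D2:**
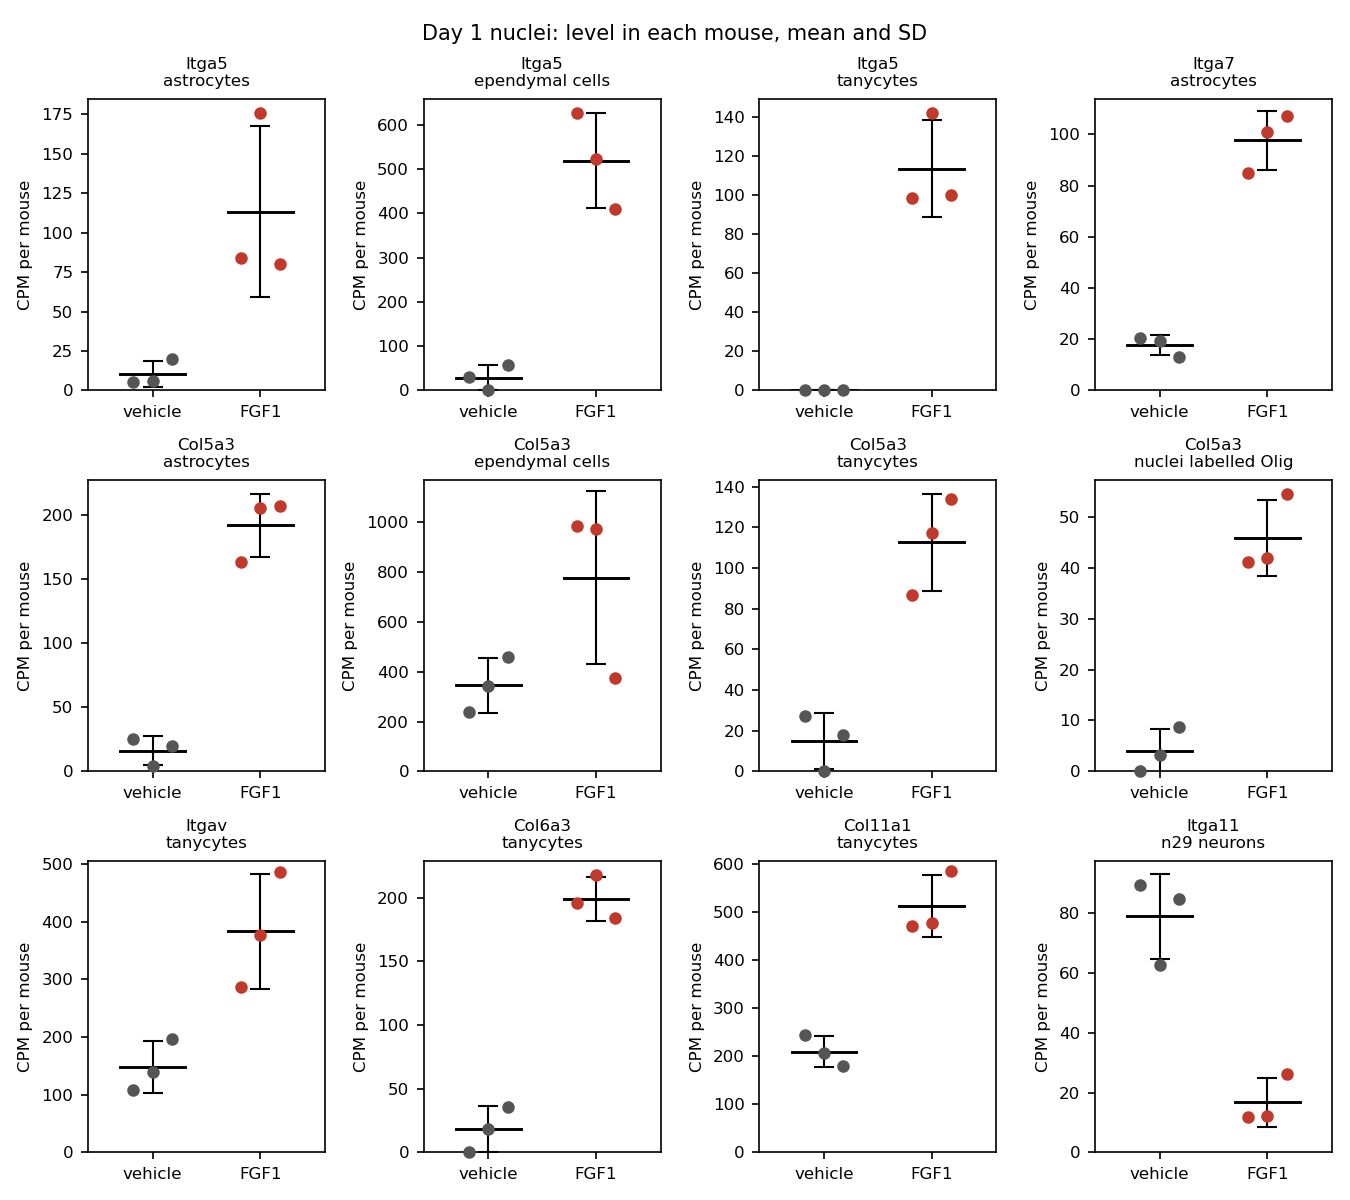
Level in each Day 1 mouse in CPM for 12 pairs of member and cell type, grey for vehicle and red for FGF1, with the horizontal line at the mean and the bars at 1 SD (n = 3 mice a group). The groups are apart in every panel other than Col5a3 in ependymal cells, and Itga11 is the panel in which FGF1 mice lie below vehicle mice.

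In Day 5 nuclei 1 of 184 member tests was called, where 0.288% of all 71541 gene tests and 1.28% of those in COP nuclei were. Tanycytes, ependymal cells and VLMC had fewer than 2 vehicle mice with at least 10 nuclei. With a minimum of 5, chosen after the data were seen, tanycytes could be tested with 34 and 107 FGF1 and 9 and 14 vehicle nuclei. Of 11 members tested there edgeR called 0 (2 at an unadjusted p below 0.05), with Itgav at 0.00 ± 0.58 (FDR = 1.0), Col11a1 at 0.39 ± 0.51 (FDR = 0.896) and Col23a1 at -0.96 ± 0.27 (FDR = 0.444). The member that fell was Col14a1, a fibril-associated chain on chromosome 15 (55307750 to 55520803), in COP nuclei. It stood at 64.2 and 42.5 CPM in FGF1 replicates 37 and 45 and at 160 and 199 in vehicle replicates 28 and 38. The groups were apart, with a log2 fold change of -1.75 ± 0.38 (FDR = 0.0118), and the call held with batch as a block (0.0362). It was lost without FGF1 replicate 45 (FDR = 0.28) or vehicle replicate 28 (0.0511), refits with 1 mouse in a group that is assumed to vary like the other group, and in DESeq2 (0.152). Col14a1 was lower without overlap in all 9 types tested, such as astrocytes (-1.35, FDR = 0.102) and n29.Nr5a1/Adcyap1 neurons (-1.10, FDR = 0.0722), and with batch as a block it was called in the latter (-1.09, FDR = 0.000664). Every fit with batch as a block in Day 5 nuclei leaves 1 residual degree of freedom per gene, so it leans on spread shared across genes. Whole libraries held 71.6 and 45.0 CPM of Col14a1 in FGF1 and 130 and 128 in vehicle mice on Day 5. On Day 1 they held 153, 36.3 and 60.9 in FGF1 and 138, 34.1 and 181 in vehicle mice, so libraries of 1 group varied as widely as the Day 5 groups differed. The part of that variation in the call was not tested. The annotation places Gm49257 and other genes on the opposite strand within Col14a1, and whether counting used strand is not given in the sources used here. The nuclei labelled COP also differed in their markers, with COP markers at 1880 to 2440 CPM in FGF1 and 529 to 638 in vehicle mice, oligodendrocyte markers at 1950 to 3030 and 239 to 772, and OPC markers at 1670 to 2670 and 3550 to 3720. None of these lists overlapped between groups. Tanycyte, endothelial, smooth muscle and pericyte markers (the last 2.79 to 11.9 against 47.5 to 66.5) were also lower without overlap. Border macrophage and arachnoid barrier markers were higher without overlap. Neuron markers summed to 19100 to 22100 and 19100 to 20700, far above the COP, oligodendrocyte and OPC markers of these nuclei in both groups. The part of these levels was not tested either. Col9a3 in the same nuclei had 41.9 and 69.8 CPM against 5.94 and 13.3 (2.75 ± 0.80, FDR = 0.102).

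Whether the difference after FGF1 changed between days was tested in the nuclei as an interaction in 11 types with enough mice. Of 221 member tests, edgeR called 0 (20 at an unadjusted p below 0.05) and DESeq2 called 0 (13 at an unadjusted p below 0.05), where edgeR called 0.00784% of all 76499 gene tests. The Day 1 calls in astrocytes, Olig nuclei and n29.Nr5a1/Adcyap1 neurons are therefore not shown to differ from Day 5. In astrocytes the Day 1 minus Day 5 difference in log2 fold change was 3.34 for Itga5 (FDR = 0.442), 2.89 for Col5a3 (FDR = 0.619) and 1.55 for Itga7 (FDR = 0.569), in Olig nuclei it was 0.67 for Col5a3 (FDR = 1.0), and in n29.Nr5a1/Adcyap1 neurons it was -1.74 for Itga11 (FDR = 0.735). Over whole libraries of Day 5 nuclei Col5a3 was at 4.50 and 2.88 CPM in FGF1 and 1.24 and 7.35 in vehicle mice, and Itga5 at 10.5 and 12.6 against 16.8 and 26.1.

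In whole cells on Day 5, 5 of 164 member tests were called, 4 higher and 1 lower, where 1.75% of all 67441 gene tests were called, 0.854% higher and 0.896% lower. Of these, 2 calls and 6 tests were of Itgb3bp and 9 tests were of Itgb1bp1, which are not integrin subunits. The share called was 5.27% in tanycyte-like cluster 0, 2.39% in OPC-like cluster 5 and 1.28% in ependymal-like cluster 6. Over the members 99 of 164 fold changes were positive with a median of 0.09. In cluster 0 both head-to-head collagen IV genes rose. Col4a5 ranged from 27.3 to 38.7 CPM in FGF1 mice (median 36.1) and from 11.6 to 26.3 in vehicle mice (median 18.8), so each FGF1 mouse lay above each vehicle mouse. The log2 fold change was 0.89 ± 0.19 (FDR = 0.00535, n = 6 each), and the call held without each of the 12 mice. Col4a6 ranged from 10.6 to 26.0 (median 18.5) against 8.38 to 13.8 (median 10.8). Here the lowest FGF1 mouse lay within the vehicle range, and the log2 fold change was 0.87 ± 0.22 (FDR = 0.0184). The call was lost without FGF1 replicate 7 (FDR = 0.0809) or vehicle replicate 20 (0.0579) or 25 (0.0717) and in DESeq2 (0.0586). The name of cluster 0 rests on 3 tanycyte markers, and the cluster also met the rule for 3 ependymal markers. Ependymal markers summed to 431 to 1010 CPM in FGF1 and 537 to 960 in vehicle mice, and VLMC markers, the type with the highest Col4a5, to 11.0 to 56.2 and 13.2 to 31.2. Tanycyte markers summed to 1190 to 1610 and 905 to 1400 and astrocyte markers to 2080 to 2610 and 2560 to 3440, each with overlap. The part of these levels in the calls was not tested.

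The classic collagen IV chains Col4a1 and Col4a2 were called by edgeR in none of the clusters in which they were tested. Their difference from Col4a5 and Col4a6 was not tested. Col4a1 in endothelial-like cells was at 173 ± 40.6 CPM in FGF1 and 138 ± 24.7 in vehicle mice (0.31, FDR = 0.414), and Col4a2 at 195 ± 44.5 and 159 ± 28.7 (0.28, FDR = 0.436). In cluster 0 Col4a1 was at 8.88 ± 5.01 and 12.3 ± 3.43. The endothelial laminin chains Lama4, Lama5, Lamb2 and Lamc1 had log2 fold changes of -0.02, 0.22, -0.01 and 0.30, none called by edgeR or DESeq2 and none at an unadjusted p below 0.05. VLMC-like cells had 935 ± 337 CPM of Col1a1 in FGF1 (n = 5) and 834 ± 445 in vehicle mice (n = 4), and Col3a1 had 709 ± 223 and 462 ± 154 (0.73 ± 0.35, FDR = 1.0). Of 877 genes tested in these cells edgeR called 0 (13 at an unadjusted p below 0.05) and DESeq2 0.

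Itgb3bp, which despite its name encodes a centromere protein, was called in cluster 0 and in ependymal-like cluster 6. In cluster 0 it ranged from 38.6 to 58.6 CPM in FGF1 (median 43.9) and 9.18 to 40.7 in vehicle mice (median 28.0), with 1 vehicle mouse inside the FGF1 range and a log2 fold change of 0.68 ± 0.19 (FDR = 0.0329). In cluster 6 it ranged from 24.0 to 79.5 (median 38.4) against 17.0 to 30.4 (median 19.2), overlapping, with 0.96 ± 0.25 (FDR = 0.0413), and batch as a block ended that call (0.0913). With each of the 12 mice left out in turn, the call in cluster 0 was lost in 7 refits, without FGF1 replicate 7, 10 or 36 or vehicle replicate 20, 25, 27 or 29 (FDR = 0.051 to 0.0859). The call in cluster 6 was lost in 8, without FGF1 replicate 6, 10 or 36 or vehicle replicate 20, 22, 25, 27 or 29 (FDR = 0.0518 to 0.249). Whole libraries held 26.3 to 40.7 CPM of Itgb3bp in FGF1 and 17.7 to 28.6 in vehicle mice. Its span on chromosome 4 also holds Efcab7 and Pgm1 on the opposite strand, and reads of these genes and of Itgb3bp can be told apart only where strand was used, which is not given in the sources used here.

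The single member that fell in whole cells was Col11a2 (chromosome 17, 34039437 to 34066685), in OPC-like cluster 5. It ranged from 44.4 to 92.0 CPM in FGF1 (median 57.6) and from 74.0 to 175 in vehicle mice (median 145), with overlap at the edges. The log2 fold change was -1.05 ± 0.19 (FDR = 0.00143), and the call held without each of the 12 mice and in DESeq2 (0.00179). OPC markers summed to 5150 to 6280 CPM in FGF1 and 4230 to 5780 in vehicle mice of this cluster, and COP markers, a type with as much Col11a2, to 1200 to 1440 and 1320 to 1660. Neuron markers summed to 1170 to 1360 and 1440 to 1610, without overlap. The part of these levels in the call was not tested.

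Cells of 1 kind were split between clusters of which at least 75% came from FGF1 mice (clusters 4, 7, 9, 11 and 17) or from vehicle mice (1, 2 and 12), so clusters of 1 name were also merged. Then 11 of 139 member tests were called, 10 higher and 1 lower, where 4.18% of all 56173 gene tests were, 2.07% higher and 2.11% lower. The shares were 12.6% in astrocyte-like, 5.08% in tanycyte-like, 3.24% in OPC-like and 2.25% in oligodendrocyte-like cells. Merged astrocyte-like cells are cluster 1, mostly vehicle, and cluster 4, mostly FGF1. They gave 6 calls, all higher. Taken separately, cluster 1 gave 0 of 18 by edgeR (3 at an unadjusted p below 0.05) and cluster 4 gave 0 of 17 (2 at an unadjusted p below 0.05), and DESeq2 called 0 in each. Of the 11 merged calls 10 held with batch as a block and 10 in DESeq2, all other than Itgb3bp in ependymal-like cells, for which DESeq2 gave no FDR. With 1 mouse left out, 8 of the 11 held in every refit.

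In merged astrocyte-like cells Col11a2 went the other way from OPC-like cells. It ranged from 23.9 to 44.7 CPM in FGF1 (median 27.6) and 1.86 to 19.0 in vehicle mice (median 11.5). The groups did not overlap, and the log2 fold change was 1.31 ± 0.24 (FDR = 0.000629). In merged OPC-like cells it ranged from 43.9 to 89.4 (median 52.1) against 72.8 to 173 (median 142), with -1.14 ± 0.20 (FDR = 0.000444). Neuron markers in merged OPC-like cells summed to 1060 to 1310 against 1450 to 1580, without overlap, and their part was not tested. OPC markers, 1070 to 1340 CPM in FGF1 and 797 to 1180 in vehicle astrocyte-like cells, were higher on average. Tanycyte markers summed to 72.8 to 202 against 61.0 to 80.4 and ependymal markers to 89.6 to 124 against 59.5 to 83.3 in the same cells, all 8 and all 6 detected in both groups, the latter without overlap. The part of these levels in the astrocyte-like calls was not tested. Within cluster 4 alone the fold change of Col11a2 was 0.19 (FDR = 0.954), and in cluster 1 it was not tested. Col4a5 rose in astrocyte-like as in tanycyte-like cells, from 8.93 to 14.5 CPM in vehicle (median 11.6) to 16.5 to 27.1 in FGF1 mice (median 25.3), without overlap and with 0.92 ± 0.20 (FDR = 0.00245). Within cluster 1 or 4 alone Col4a5 was not tested, and the part of a shift between these clusters was not tested. In merged tanycyte-like cells Col4a5 was at 29.4 ± 2.82 against 18.2 ± 3.05 (0.72 ± 0.16, FDR = 0.00906) and Col4a6 at 18.4 ± 3.02 against 9.82 ± 2.48 (0.87 ± 0.20, FDR = 0.0103), neither with overlap. That call of Col4a5 was lost without vehicle replicate 20 (FDR = 0.0537). Tanycyte markers, all 8 detected, summed to 1700 to 2340 CPM in FGF1 and 1130 to 1560 in vehicle mice in these cells, without overlap, and their part in the calls was not tested.

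Members that bind or build laminin were among the astrocyte-like calls. Lamb2, the laminin beta 2 chain, ranged from 67.3 to 100 CPM in FGF1 (median 76.2) and 43.7 to 62.5 in vehicle mice (median 50.8), without overlap, and the log2 fold change was 0.56 ± 0.13 (FDR = 0.00421). Within clusters 1 and 4 it was 0.13 and 0.02. Itga6, the laminin-binding alpha chain, ranged from 89.3 to 117 (median 110) against 65.2 to 90.5 (median 80.5), with overlap between the lowest FGF1 and the highest vehicle mouse and 0.40 ± 0.11 (FDR = 0.0175), and was at 0.48 and 0.33 within the 2 clusters. Itgb5, a beta chain that pairs with Itgav, ranged from 111 to 142 (median 123) against 69.8 to 101 (median 84.4), without overlap, with 0.59 ± 0.12 (FDR = 0.00137), and was at 0.25 and 0.69 within them. Col9a3 was called in astrocyte-like cells (27.1 to 47.9, median 40.0, against 11.2 to 34.5, median 25.3, FDR = 0.0169) and in oligodendrocyte-like cells (27.7 to 44.8, median 33.4, against 9.99 to 32.9, median 15.3, FDR = 0.0288), with overlap in both. The oligodendrocyte-like call was lost without FGF1 replicate 7 or 21 or vehicle replicate 20, 25 or 29 (FDR = 0.0603 to 0.0974). Oligodendrocyte markers in those cells summed to 51400 to 78700 CPM in FGF1 and 37100 to 49100 in vehicle mice. COP markers summed to 189 to 238 and 163 to 194, and ependymal markers to 102 to 149 and 52.0 to 99.9, and the part of these levels was not tested. The merged fold change of Lamb2 was thus larger than in either cluster and that of Col11a2 larger than in cluster 4, whereas Itga6 and Col9a3, at 0.58 and 0.71, kept a similar size in both.

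**Figure D3:**
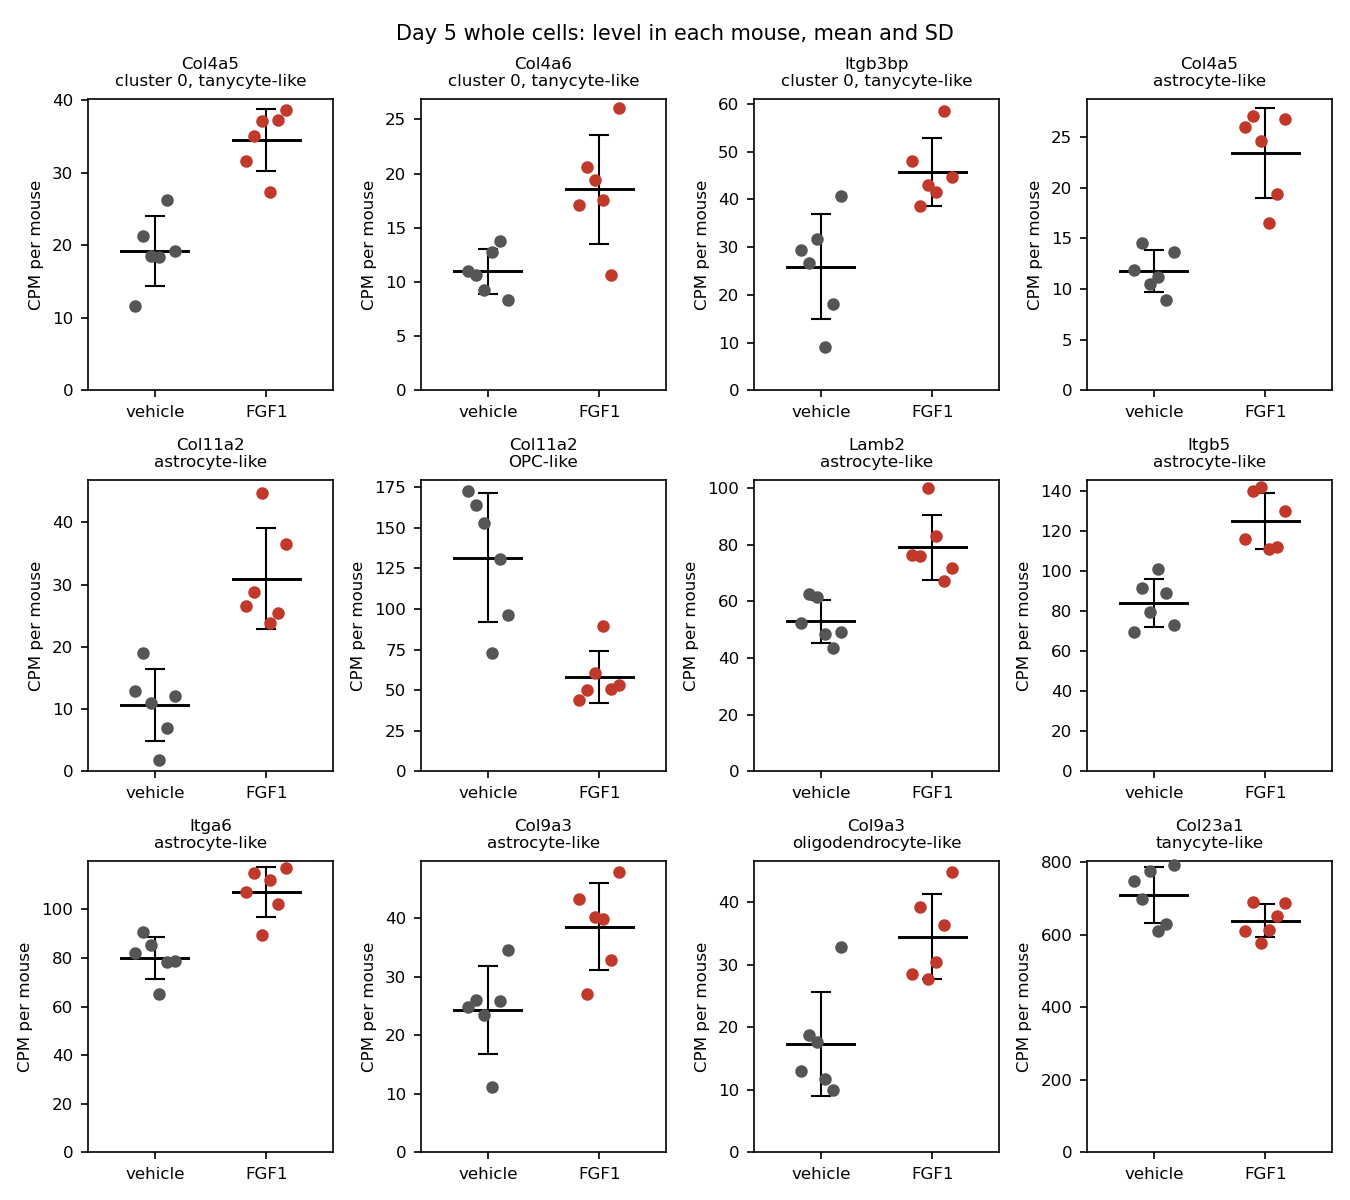
Level in each whole-cell mouse on Day 5 in CPM for 12 pairs of member and cell group, grey for vehicle and red for FGF1, with the horizontal line at the mean and the bars at 1 SD (n = 6 mice a group). Panels without a cluster number show merged clusters. Col11a2 is higher after FGF1 in astrocyte-like cells and lower in OPC-like cells, and Col23a1 in tanycyte-like cells overlaps between groups.

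Several members with Day 1 differences were not called by edgeR in the clusters of whole cells. Col23a1 was at 1050 ± 128 CPM in FGF1 and 1290 ± 133 in vehicle mice in cluster 10 (-0.29, FDR = 0.257) and at 867 ± 66.4 (n = 5) and 1120 ± 155 in cluster 7 (-0.37, FDR = 0.104, and 0.0371 in DESeq2). In oligodendrocyte-like cluster 2 it was at 113 ± 57.0 against 43.2 ± 14.5 (1.28 ± 0.35, FDR = 0.136), and there DESeq2 (0.00215) and the fit with batch as a block (0.00229) called it. Itgav was positive in 3 of 13 clusters, with 0 called by edgeR (4 at an unadjusted p below 0.05) and 1 by DESeq2, in COP-like cells, where it was at -0.87 (FDR = 0.112 in edgeR and 0.0415 in DESeq2). Col5a3 in cluster 0 was at 10.4 against 5.50 CPM (0.95, FDR = 0.105), and Col6a3 at 20.0 against 12.9 (0.64, FDR = 0.12). In merged tanycyte-like cells Col6a3 was at 18.6 ± 9.55 against 10.9 ± 3.52 (0.82 ± 0.27, FDR = 0.0811), and with batch as a block it was called (0.81, FDR = 0.0266). Itgam in microglia-like cells was at 443 ± 74.6 against 358 ± 97.6 (0.34, FDR = 0.511) and Itgb5 at 542 ± 129 against 431 ± 78.3. Itgb1 was called in 0 of 12 clusters (1 at an unadjusted p below 0.05) and Itgb8 in 0 of 11 (3 at an unadjusted p below 0.05) by edgeR, and DESeq2 called 0 of either.

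**Figure D4:**
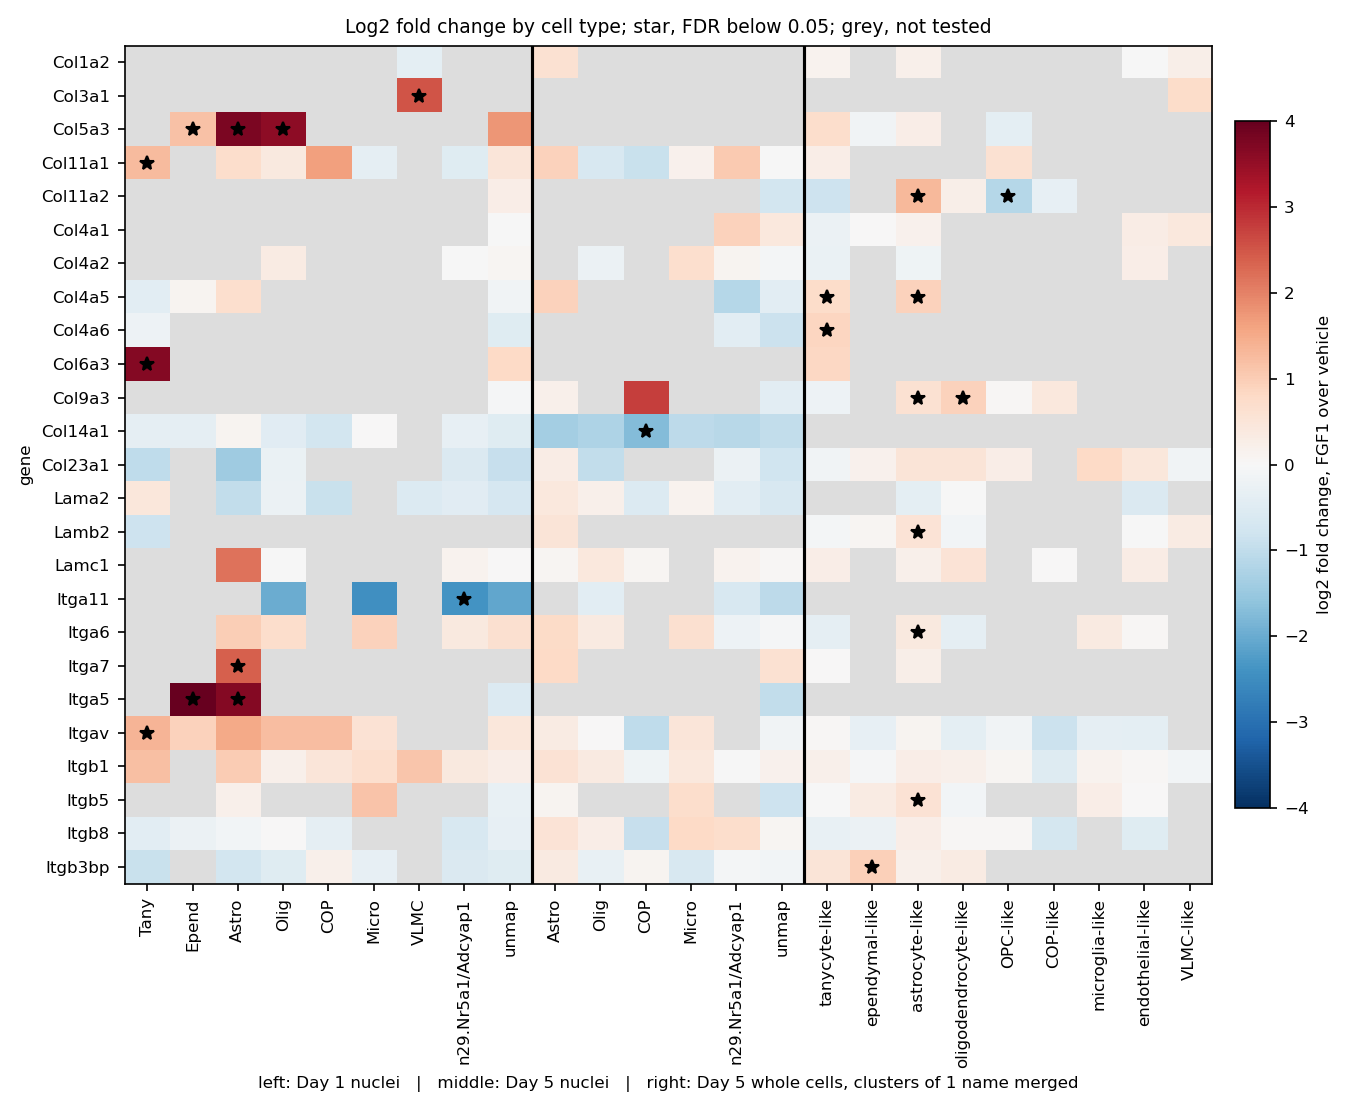
Log2 fold change of FGF1 over vehicle for selected members (rows), Itgb3bp among them, in the cell types of Day 1 nuclei (left), Day 5 nuclei (middle) and merged Day 5 cells (right), red for higher and blue for lower, with a star where the FDR was below 0.05 and grey where no test was made. Stars on Day 1 fall in tanycyte, ependymal, astrocyte, Olig, VLMC and n29 columns, and in Day 5 cells more of them fall in the astrocyte-like column than in any other.

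The other genes of the matrix and adhesion machinery, taken from 6 lists, gave 54 calls. The base on Day 1 is the 0.653% of all gene tests called higher and the 0.393% called lower. Apart from Adam12 in Agrp neurons, the Day 1 list calls fell in tanycytes, ependymal cells, astrocytes and VLMC. In these types 9.14%, 19.0%, 1.55% and 2.26% of all genes were called, so the base over all types understates the share there. On Day 1, proteases that cut matrix had 9 of 104 tests higher and none lower by edgeR, such as Mmp3, stromelysin, in VLMC (FDR = 3.39e-05), Plat, tissue plasminogen activator, in tanycytes (2.62, FDR = 0.00278) and Adam12 in tanycytes (3.25, FDR = 0.00688). Mmp3 had 34 UMIs in the 2 FGF1 mice with enough VLMC nuclei and 0 in the 3 vehicle mice, or at least 21.7-fold higher against the floor of 3 counts over the vehicle group. Matrix receptors other than integrins had 6 of 89 higher and 1 lower, and Cd44, the hyaluronan receptor, rose in tanycytes (3.57, FDR = 0.00156), ependymal cells (2.62, FDR = 0.00258) and astrocytes (4.61, FDR = 0.00518). Proteins of the integrin-linked adhesion complex had 8 of 193 higher and none lower by edgeR, such as the actin linkers Flna in astrocytes (2.69, FDR = 0.0188) and Parva in tanycytes (1.71, FDR = 0.0241). Collagen folding and cross-linking genes had 2 of 59 higher and 1 lower, the first being the procollagen protease Bmp1 (3.41, FDR = 0.00575) and the collagen chaperone Serpinh1 (3.35, FDR = 0.0297) in astrocytes and the second P3h2 in tanycytes (-1.78, FDR = 0.0349). Other integrin ligands had 2 of 76 higher and 1 lower, with Spp1, osteopontin, at 5.96 in VLMC (2 FGF1 mice, FDR = 5.6e-05). Basement membrane partners had 0 of 25 called by edgeR (2 at an unadjusted p below 0.05) and 0 by DESeq2. The median log2 fold changes of the 6 lists lay between 0.06 and 0.22, against 0.01 over all genes.

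On Day 5, 0.288% of all gene tests in nuclei were called, and in whole cells 0.854% were called higher and 0.896% lower. By type, the share in either direction was 1.28% in COP nuclei, 5.27% in cluster 0 and 2.39% in cluster 5. In the other types with list calls, edgeR called 53 of 8484 genes in astrocyte nuclei and 107 of 1613 in oligodendrocyte-like cluster 11. It called 46 of 2159 in cluster 10, 78 of 4027 in cluster 7 and 52 of 4171 in cluster 9. In clusters 6, 2 and 1 it called 86 of 6734, 65 of 7187 and 31 of 7679. In nuclei, 2 of 177 adhesion complex tests rose, Tns3 (2.04, FDR = 0.00123) and Cd9 (1.72, FDR = 0.0107), both in COP, together with the protease Plat in astrocytes (1.95, FDR = 0.0323) and the matrix glycoprotein Tnr in COP (1.36, FDR = 0.00527). The COP nuclei are those whose oligodendrocyte, COP and OPC markers differed between groups. Their neuron markers, at 19100 to 22100 CPM in FGF1 and 19100 to 20700 in vehicle mice, were far above each of these lists. The part of these levels in the COP calls was not tested. DESeq2 gave no FDR for Plat. Basement membrane partners, folding genes and the other receptors had 0 of 28, 0 of 72 and 0 of 76 called by edgeR (2, 1 and 8 at an unadjusted p below 0.05) and 0 by DESeq2. In whole cells basement membrane partners had 4 of 40 tests lower and 0 higher, and all 4 were Sparc, a collagen-binding protein, in clusters 0, 10, 5 and 9, with -0.51 in cluster 0 (FDR = 0.00348). In cluster 0, where Col4a5 and Col4a6 rose, Cd44 (1.18, FDR = 2.75e-06) and Plat (1.03, FDR = 0.0209) rose as well. The adhesion complex had 4 of 237 higher and 1 lower, the proteases 2 of 98 and 1, the folding genes 2 of 91 and 0, the other ligands 1 of 87 and 2, and the other receptors 2 of 96 and 1. With clusters of 1 name merged, where 2.07% of all gene tests were called higher and 2.11% lower, the adhesion complex had 14 of 185 higher and 1 lower, the proteases 5 of 78 and 1, the other receptors 6 of 73 and 0, the other ligands 5 of 76 and 3, the basement membrane partners 1 of 33 and 4, and the folding genes 1 of 78 and 0. Many of these merged calls were in astrocyte-like cells, where 12.6% of all genes were called.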

How the data were processed

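Single-nucleus and whole-cell libraries (10x 3' v2) of single mice were processed by the authors with Cell Ranger 1.2 on GRCm38 (mm10), counting introns for nuclei, and the deposited tables hold UMI counts per gene and barcode. Per the methods, barcodes had been filtered, doublets (Scrublet) and neurons had been removed from the cells, and no doublets had been removed from the nuclei. The deposited metadata gave sample, batch, cell type or cluster, and the percent of mitochondrial and ribosomal UMIs as the authors computed them. Deposited log-normalized values were not used.

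Counts were summed per mouse and type. A mouse entered with at least 10 cells, a type with at least 2 mice a group. FGF1 was compared with vehicle in edgeR 4.0.16 (R 4.3.3; filterByExpr, TMM, robust glmQLFit), with DESeq2 1.42.0 as an alternative. SE is the log2 fold change over the square root of F. The 660 nuclei set aside in the annotation were not tested. A cluster name needed 3 markers, each in at least 10% of its cells and at least 2-fold above the cells compared. These were the cells outside every cluster that met 2 or more markers of that list in a first pass. The rule was set after the profiles were seen, and a cluster could meet several lists. Endothelial-like cluster 3 also met 6 of 6 pericyte markers. Pericyte-like cluster 15 also met 5 of 7 endothelial and 3 of 8 astrocyte markers. Each metadata batch held 1 FGF1 and 1 vehicle mouse of a dataset. Members, lists and rules were chosen with earlier results of these data known. Members past an FDR of 0.05 were named, with values per mouse for those called in 2 or more types and the 6 of smallest FDR a dataset, together with a set of basement membrane, fibril and integrin chains. Gene positions are from GENCODE. On simulated counts for Day 1 tanycytes the fit recovered 63.2% of genes changed by 2 (log2) and 8.42% of those changed by 1, for Day 1 astrocytes 21.7% and 0%, for Day 5 astrocyte nuclei 79% and 8.25%, and for cell cluster 0 99% and 87.8%.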

Additional observations from a re-analysis of the deposited data

Results flagged for a closer look

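Of 32 groups of 6 mice examined for called members, 2 held a mouse far from the others, and chance alone sets apart about 1 in 20 groups. Col11a2 in OPC-like cells of FGF1 replicate 36 was at 89.4 CPM, with the next mouse at 60.9. Col4a5 in tanycyte-like cells of vehicle replicate 20 was at 12.3 CPM, with the next mouse at 18.1.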

How the results depend on the processing

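No called member changed direction under any alternative run. Of 142 refits of called members other than those leaving out a mouse, 109 kept the call and 33 lost it, and of 129 refits without 1 mouse, 76 kept it and 53 lost it. A refit that leaves 1 mouse in a group, as each does in Day 5 nuclei and 2 do in Day 1 VLMC, assumes that this mouse varies like the other group. The 11 Day 1 calls became 7 in 1 fit over the 4 groups of nuclei, 4 with batch as a block (added after the data were seen) and 28 without the filter on low counts, and were 10 to 12 with DESeq2, RLE scaling or adjustment over all types. The fit over 4 groups left out tanycytes, ependymal cells and VLMC, which had too few Day 5 vehicle mice. Their Day 1 calls could not recur in it. Of the 28, 7 were among the 11, as were 4 of the 7 in 1 fit over 4 groups, 8 of 12 in DESeq2 and 8 of 10 adjusted over all types. Without 1 mouse Day 1 gave 4 to 15 calls, 4 without vehicle replicate 1, 5 without vehicle replicate 2 and 6 without FGF1 replicate 2. The replicate number as a block gave 9 Day 1 calls, 7 of them among the 11, but the numbers do not pair the mice: over 48 same-numbered pairs the correlation of deviations ran from -0.504 to 0.522 (median -0.124). Over 46 Day 1 pairs of the same batch it was no higher, from -0.663 to 0.39 (median -0.234).

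The 1 call in Day 5 nuclei became 0 in the fit over 4 groups, 0 in DESeq2 and 0 with at least 20 nuclei a mouse, 2 with batch as a block and 4 without the filter, and 0 to 8 without 1 mouse (0 without FGF1 replicate 45, 3 without FGF1 replicate 37 or vehicle replicate 28, 8 without vehicle replicate 38). The 5 calls in cells became 11 with clusters of 1 name merged, 14 with batch as a block besides, and 8 without the filter, and 2 to 7 without 1 mouse, with 2 without vehicle replicate 20 or 25 and 3 without FGF1 replicate 7, 10 or 36 or vehicle replicate 27 or 29. DESeq2 on the separate clusters gave 6 calls, of which 3 were among the 5. With clusters merged, edgeR gave 11 calls, DESeq2 11, of which 10 were shared, and refits without 1 mouse 8 to 13 (added after the data were seen). The treatment by day tests gave 1 call without the filter (Col16a1 in astrocytes, 3.57) and 0 to 1 without 1 mouse, the 1 without FGF1 replicate 1 of Day 1. The 54 list calls were 53 in DESeq2 and 56 with RLE scaling. Apart from the types left out of the fit over 4 groups, the cause of these changes was not tested. Ependymal cells numbered 13 to 23 a mouse on Day 1, and the effect of that number on the calls was not tested.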
